A study of Homo sapiens with 12 samples.

Results

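The TGF-beta axis was followed through 10 genes in HCT116, a line from a human colorectal carcinoma. They are the ligands TGFB1 and TGFB2, the receptors TGFBR1, TGFBR2 and TGFBR3, the signal transducers SMAD2, SMAD3 and SMAD4, and the inhibitors SMAD7 and BAMBI. The genes were chosen by pathway membership, with earlier results of these data known, and all 10 named genes were among the 15074 genes measured. The 12 libraries of total RNA depleted of ribosomal RNA fall into 4 groups of 3. FH-5xA cells are AGO2 knockout cells given back AGO2 with an FH tag and the 5xA mutation, and FH-WT cells are the same knockout given back wild-type AGO2 with an FH tag. Knockout cells are labelled AGO2_KO, and parental cells are unmodified HCT116. The reconstituted groups therefore share the knockout background. Each group was grown as triplicate wells, seeded with 500000 cells and collected after 48 h. The study asked which transcripts differ between cells reconstituted with the wild-type and the 5xA protein, with knockout and parental cells as controls. The sources used here do not state the promoter that drives the tagged AGO2 or whether each line is 1 clone.

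TGF-beta ligands are secreted in a latent complex and, once released, bind TGFBR2, which recruits and phosphorylates TGFBR1. TGFBR1 then phosphorylates SMAD2 and SMAD3, which enter the nucleus with SMAD4 and control transcription, while TGFBR3 (betaglycan) presents ligand to TGFBR2. SMAD7 and BAMBI dampen the signal. In colon epithelium the pathway restrains growth, and tumours with defective mismatch repair, the class to which HCT116 belongs, often carry frameshifts in an adenine repeat of the TGFBR2 coding sequence. AGO2, an Argonaute protein, is loaded with microRNAs and represses the mRNAs they pair with.

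All values derive from the authors' deposited tables, which hold 5 group comparisons and no value per library. A fold change is given on the log2 scale with a standard error (SE) derived from the deposited likelihood ratio score. A gene was called higher or lower at a false discovery rate (edgeR FDR) under 0.05. A level is a fitted CPM value per group (counts scaled to library size), made from the deposited mean expression and fold changes. CPM is not corrected for gene length, so levels are compared between groups of 1 gene and not between genes. Values per library and the depth of the libraries were not analysed here, so the overlap of single wells between groups cannot be given. Each group is 1 line, so the p-values cover variation from well to well and not between lines. In these bulk samples fewer cells of a type and less RNA per cell cannot be told apart. The targeted gene was checked first. AGO2 mRNA had fitted levels of 267 CPM in FH-5xA, 270 CPM in FH-WT, 161 CPM in knockout and 205 CPM in parental cells. It fell by 0.35 ± 0.07 in knockout against parental cells in the authors' deposited table (edgeR FDR = 1.4e-06). The mRNA persisted in the knockout, and protein was not measured in these tables.

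Because the study perturbs a microRNA effector, the 3′ untranslated regions (UTRs) of the members were searched for matches to the seeds, bases 2 to 8, of 16 microRNAs with different seeds. Mature sequences are from RefSeq (GRCh38.p14) and transcripts from GENCODE 29 (GRCh38). Only the transcript strand was read, and 1 annotated 3′ UTR was used per gene. The microRNAs whose matches are shown here follow, 5′ to 3′, with the seed in capitals.
hsa-miR-17-5p: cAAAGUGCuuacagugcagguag
hsa-miR-19b-3p: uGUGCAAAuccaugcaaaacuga
hsa-miR-130b-3p: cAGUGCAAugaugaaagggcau
hsa-miR-21-5p: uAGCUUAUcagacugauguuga
hsa-let-7a-5p: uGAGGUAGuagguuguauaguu

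The searched letters were GCACTTT for miR-17, TTTGCAC for miR-19b, TTGCACT for miR-130b, ATAAGCT for miR-21 and CTACCTC for let-7a. For the remaining microRNAs they were CAGTATT for miR-200c, CAGTGTT for miR-141, TGCTGCT for miR-16, TGGTGCT for miR-29a, CACTGCC for miR-34a and TGTTTAC for miR-30a. TACTTGA was searched for miR-26a, ACTGTGA for miR-27b, AATGTGA for miR-23b, AACTGGA for miR-145 and AAAGGGA for miR-204. The matches of miR-19b, miR-130b and miR-17 overlap in 1 run of 10 bases, TTTGCACTTT. This run was present in 130 of 11745 3′ UTRs (1.11%), and among the members in TGFBR2 and SMAD4. The windows below show it in capitals, at chr3:30691864-30691873 on the plus strand for TGFBR2 and at chr18:51079821-51079830 on the plus strand for SMAD4.
TGFBR2, overlapping matches: gccaataacaTTTGCACTTTattaatgcct
SMAD4, overlapping matches: ttttttttctTTTGCACTTTtgagtccaat

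Separate matches stood in several members, and 6 are printed with the matched bases in capitals. The BAMBI matches lie on the plus strand at chr10:28682467-28682473 for miR-17 and chr10:28682559-28682565 for miR-19b. The TGFBR3 match to miR-19b lies on the minus strand at chr1:91682872-91682878 and the TGFBR1 match to let-7a on the plus strand at chr9:99149380-99149386. The SMAD7 match to miR-21 lies on the minus strand at chr18:48920244-48920250 and the TGFB2 match to miR-21 on the plus strand at chr1:218442644-218442650.
BAMBI, miR-17: gctggacaggaGCACTTTatctgaagaca
BAMBI, miR-19b: ctgaaggattaTTTGCACagacttaaata
TGFBR3, miR-19b: tcaaggacgaaTTTGCACagtgatatatt
TGFBR1, let-7a: ggtcaattgttCTACCTCactgagaggga
SMAD7, miR-21: tagactttaacATAAGCTatttttctaac
TGFB2, miR-21: attattatgacATAAGCTacctgggtcca

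Across the comparison of knockout with parental cells, TGFB1, TGFB2, TGFBR2, TGFBR3, SMAD2, SMAD3 and SMAD7 were higher in the knockout and BAMBI was lower. Of the 10 members, 7 were called higher and 1 lower in the authors' deposited table, beside 23.2% of all 15074 genes called higher and 21.2% called lower. TGFBR1 and SMAD4 were not called. The other genes within 5 Mb of each member's start had median values of -0.08 to 0.13 in the authors' deposited table. The median log2 fold change was 0.52 over the 10 members and -0.01 over all genes. No test was run on the members as a list, and they were chosen with earlier results of these data known.

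**Figure D1:**
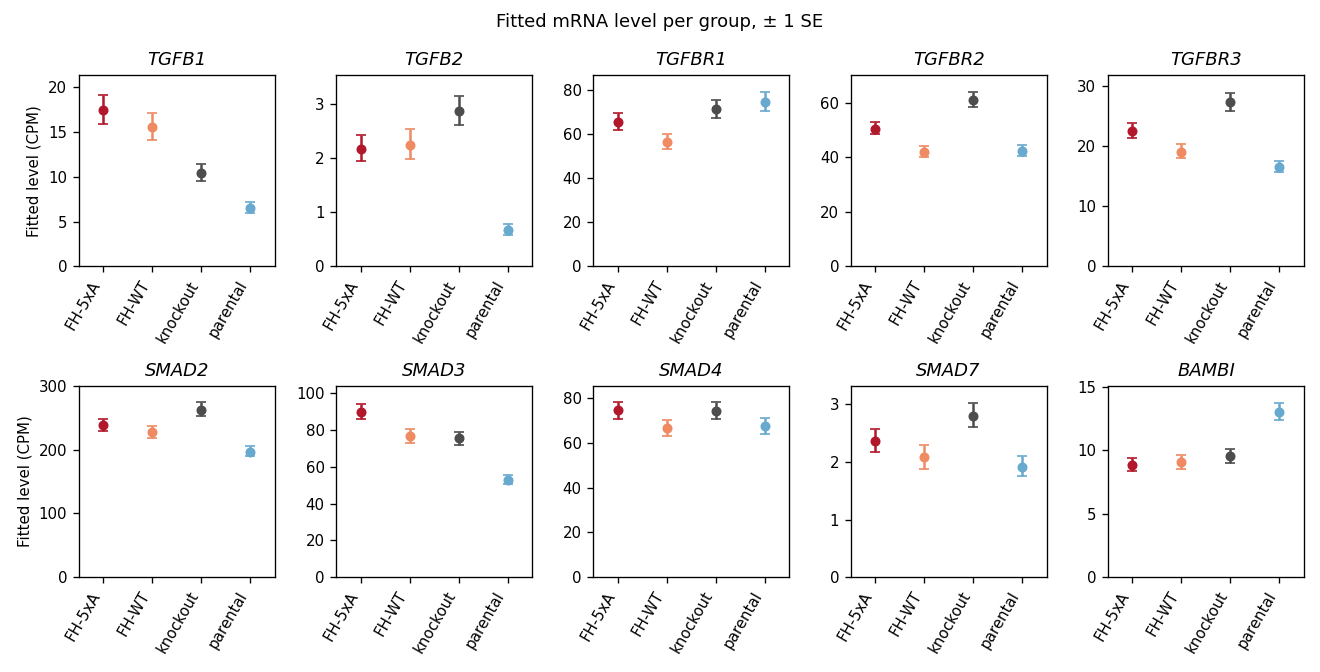
Fitted level in CPM (vertical axis, from 0) of each of the 10 genes in FH-5xA, FH-WT, knockout and parental cells, left to right; bars are 1 SE on the log2 scale. TGFB1 was highest in FH-5xA at 17.5 CPM and TGFB2 lowest in parental cells at 0.682 CPM, while SMAD4 stayed between 66.5 and 74.4 CPM.

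The ligand TGFB3, which is no member, was not called in knockout against parental cells, at -0.04 ± 0.20 in the authors' deposited table (edgeR FDR = 0.88). TGFB2 (ENSG00000092969, chr1:218346235-218444619, GRCh38) changed most among the members. Its fitted levels were 2.17 CPM in FH-5xA, 2.25 CPM in FH-WT, 2.87 CPM in knockout and 0.682 CPM in parental cells. Parental cells stood apart below the other 3 groups, which were not called different from one another. In the authors' deposited tables TGFB2 rose by 2.08 ± 0.25 in knockout against parental cells, a 4.22-fold difference (edgeR FDR = 2.4e-15). Against parental cells it was also higher in FH-5xA, by 1.67 ± 0.26 (edgeR FDR = 2.4e-09), and in FH-WT, by 1.73 ± 0.27 (edgeR FDR = 5.6e-09), per the authors' deposited tables. Against knockout cells the deposited tables of the authors gave -0.40 ± 0.21 in FH-5xA (edgeR FDR = 0.22) and -0.35 ± 0.22 in FH-WT (edgeR FDR = 0.34). These comparisons share the knockout libraries with the first.

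TGFB1 (ENSG00000105329, chr19:41301587-41353911, GRCh38) had another pattern, with its lowest level in parental cells and both reconstituted lines above the knockout. Its fitted levels were 17.5 CPM in FH-5xA, 15.6 CPM in FH-WT, 10.4 CPM in knockout and 6.53 CPM in parental cells. In this order knockout and parental cells differed, FH-WT and knockout cells differed, and FH-5xA and FH-WT cells were not called different. The knockout exceeded parental cells by 0.68 ± 0.20 in the authors' deposited table (edgeR FDR = 0.0019). Both reconstituted lines were higher again than the knockout in the authors' deposited tables, FH-5xA by 0.74 ± 0.19 (edgeR FDR = 0.0024) and FH-WT by 0.58 ± 0.19 (edgeR FDR = 0.035). Against parental cells the rise reached 1.42 ± 0.20 in FH-5xA (edgeR FDR = 7.2e-12) and 1.25 ± 0.20 in FH-WT (edgeR FDR = 5.6e-09), per the authors' deposited tables. The annotation places HNRNPUL1, CCDC97 and TMEM91 on the opposite strand across part of TGFB1, and the sources used here do not state whether counting used strand. In knockout against parental cells HNRNPUL1 was at -0.08 ± 0.12 and TMEM91 at 0.30 ± 0.24 in the authors' deposited table, neither called. TMEM91 was called higher in FH-5xA against parental cells, by 0.76 ± 0.24 (edgeR FDR = 0.004), in the authors' deposited table. Annotated genes also overlap TGFB2, TGFBR3, SMAD2 and SMAD4 on the same strand, and none of those overlapping genes was among the genes measured.

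The genes whose profile over the 4 groups came nearest to each ligand were found by the root mean square difference of centred log2 levels. Nearest to TGFB2 were ENSG00000238178, which carries no symbol here, at 0.03, CDKN1A at 0.06 and CA12 at 0.08. CDKN1A, a cyclin-dependent kinase inhibitor, had 259 CPM in FH-5xA, 251 CPM in FH-WT, 348 CPM in knockout and 84.6 CPM in parental cells. Nearest to TGFB1 were HCFC1 at 0.03, TCF7L1 at 0.06 and ENSG00000243302 at 0.06. HCFC1, a chromatin cofactor of transcription, had 92.9 CPM in FH-5xA, 82.8 CPM in FH-WT, 53.0 CPM in knockout and 35.0 CPM in parental cells. With 4 groups such likeness is a description only.

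Receptors split into 2 that rose in the knockout and 1 that was not called. TGFBR2 (ENSG00000163513, chr3:30606502-30694142, GRCh38) had fitted levels of 50.6 CPM in FH-5xA, 42.1 CPM in FH-WT, 61.2 CPM in knockout and 42.5 CPM in parental cells. The knockout was highest, FH-5xA came next and differed both from the knockout and from parental cells, and parental and FH-WT cells were not called different. It rose by 0.53 ± 0.09 in knockout against parental cells in the authors' deposited table (edgeR FDR = 2.9e-08). Against the knockout it was lower in FH-5xA, by -0.28 ± 0.09 (edgeR FDR = 0.023), and in FH-WT, by -0.54 ± 0.09 (edgeR FDR = 6e-07), in the authors' deposited tables. Against parental cells FH-5xA remained higher by 0.25 ± 0.09 (edgeR FDR = 0.014), and FH-WT was at -0.01 ± 0.09 (edgeR FDR = 0.95; 95% interval -0.19 to 0.17), per the authors' deposited tables.

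The adenine repeat for which TGFBR2 is known in mismatch-repair deficient tumours lies in exon 4 of 8 of ENST00000359013.4. It is 10 adenines at coding positions 449 to 458, at chr3:30650380-30650389 on the plus strand of GRCh38, and is printed in capitals with its reference flanks.
TGFBR2, coding adenine repeat: attatgaaggAAAAAAAAAAgcctggtgag

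Runs of at least 10 adenines in the coding sequence occurred in 46 of 11778 genes (0.391%), and TGFBR2 was the only one of the 10 members among them. The longest run in the other members was 8 bases, in TGFB2. The sequence is that of the reference genome. Reads over the repeat were not analysed here, so the tables give the amount of TGFBR2 mRNA and not its reading frame.

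TGFBR3 (ENSG00000069702, chr1:91680343-91906335, GRCh38) had fitted levels of 22.5 CPM in FH-5xA, 19.1 CPM in FH-WT, 27.3 CPM in knockout and 16.6 CPM in parental cells. Knockout and parental cells formed the ends of the order, and no neighbouring groups were called different. In the authors' deposited tables it rose by 0.72 ± 0.12 in knockout against parental cells (edgeR FDR = 5.6e-09) and was lower in FH-WT than in knockout cells, by -0.51 ± 0.12 (edgeR FDR = 0.00072). FH-5xA against knockout was at -0.28 ± 0.11 in the authors' deposited table and missed the threshold (edgeR FDR = 0.096). FH-5xA exceeded parental cells by 0.44 ± 0.12 (edgeR FDR = 0.00065), while FH-WT against parental cells was at 0.21 ± 0.12 (edgeR FDR = 0.18), per the authors' deposited tables.

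TGFBR1 (ENSG00000106799, chr9:99104038-99154192, GRCh38), the kinase that phosphorylates SMAD2 and SMAD3, had fitted levels of 65.5 CPM in FH-5xA, 56.5 CPM in FH-WT, 71.3 CPM in knockout and 74.7 CPM in parental cells. Knockout against parental cells was at -0.07 ± 0.12 in the authors' deposited table (edgeR FDR = 0.68; 95% interval -0.30 to 0.17). Its only call was in FH-WT against parental cells, where it fell by 0.40 ± 0.12 in the authors' deposited table (edgeR FDR = 0.0049). By the F distribution with 1 and 8 degrees of freedom, a stricter reference for the deposited scores, that call was lost (adjusted p = 0.052). FH-5xA against parental cells was at -0.19 ± 0.12 (edgeR FDR = 0.21) in the authors' deposited table. The difference between the receptors was not tested.

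Among the transducers SMAD2 and SMAD3 rose in the knockout and SMAD4 was not called. SMAD3 (ENSG00000166949, chr15:67063763-67195195, GRCh38) had fitted levels of 89.9 CPM in FH-5xA, 76.9 CPM in FH-WT, 75.5 CPM in knockout and 53.0 CPM in parental cells. All 3 derived lines lay above parental cells, and their own neighbours in the order were not called different. The authors' deposited tables gave rises against parental cells of 0.76 ± 0.10 in FH-5xA (edgeR FDR = 1.2e-13), 0.54 ± 0.10 in FH-WT (edgeR FDR = 7.2e-07) and 0.51 ± 0.10 in knockout cells (edgeR FDR = 1.3e-06). Against the knockout SMAD3 was at 0.25 ± 0.10 in FH-5xA (edgeR FDR = 0.065) and 0.03 ± 0.10 in FH-WT (edgeR FDR = 0.91), per the authors' deposited tables.

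SMAD2 (ENSG00000175387, chr18:47808957-47931146, GRCh38) had fitted levels of 238 CPM in FH-5xA, 228 CPM in FH-WT, 263 CPM in knockout and 197 CPM in parental cells. Parental cells were again lowest, and the other 3 groups were not called different. It rose by 0.42 ± 0.08 in knockout against parental cells in the authors' deposited table (edgeR FDR = 2.1e-06). The rises in FH-5xA, 0.27 ± 0.08 (edgeR FDR = 0.003), and in FH-WT, 0.21 ± 0.08 (edgeR FDR = 0.036), against parental cells were smaller in the authors' deposited tables. Whether they differ from the rise in the knockout is given by the direct values against knockout cells in the authors' deposited tables, -0.15 ± 0.08 in FH-5xA (edgeR FDR = 0.26) and -0.21 ± 0.08 in FH-WT (edgeR FDR = 0.079).

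SMAD4 (ENSG00000141646, chr18:51028394-51085045, GRCh38), the common partner of the receptor-regulated SMADs, had fitted levels of 74.4 CPM in FH-5xA, 66.5 CPM in FH-WT, 74.3 CPM in knockout and 67.4 CPM in parental cells. It was not called in any comparison. The authors' deposited table gave 0.14 ± 0.11 for knockout against parental cells (edgeR FDR = 0.29), with a 95% interval of -0.07 to 0.35. SMAD4 carries the same run of overlapping microRNA matches as TGFBR2, whose value in that deposited table of the authors was 0.53 ± 0.09. The base after the run differs. It is an A in TGFBR2, opposite base 1 of miR-17, and not an A in SMAD4. The match describes letters in the annotated UTR and not binding.

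The inhibitors went in opposite directions in the knockout. SMAD7 (ENSG00000101665, chr18:48919853-48952052, GRCh38), an inhibitory SMAD that blocks the type I receptor, had fitted levels of 2.37 CPM in FH-5xA, 2.08 CPM in FH-WT, 2.80 CPM in knockout and 1.92 CPM in parental cells. It rose by 0.54 ± 0.17 in knockout against parental cells in the authors' deposited table (edgeR FDR = 0.0035), its only call. Against the knockout the authors' deposited tables gave -0.24 ± 0.16 in FH-5xA (edgeR FDR = 0.37) and -0.43 ± 0.18 in FH-WT (edgeR FDR = 0.11). No neighbouring groups in its order were called different.

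BAMBI (ENSG00000095739, chr10:28677342-28682939, GRCh38), a pseudoreceptor without a kinase domain, was the only member called lower in knockout than in parental cells. Its fitted levels were 8.83 CPM in FH-5xA, 9.05 CPM in FH-WT, 9.53 CPM in knockout and 13.0 CPM in parental cells. Parental cells stood above the other 3 groups, which were not called different. The authors' deposited tables gave falls against parental cells of -0.56 ± 0.11 in FH-5xA (edgeR FDR = 2.9e-06), -0.52 ± 0.12 in FH-WT (edgeR FDR = 5.5e-05) and -0.45 ± 0.11 in knockout cells (edgeR FDR = 0.00015). Both reconstituted lines lay close to the knockout in the authors' deposited tables, at -0.11 ± 0.11 in FH-5xA (edgeR FDR = 0.6) and -0.07 ± 0.12 in FH-WT (edgeR FDR = 0.77).

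**Figure D2:**
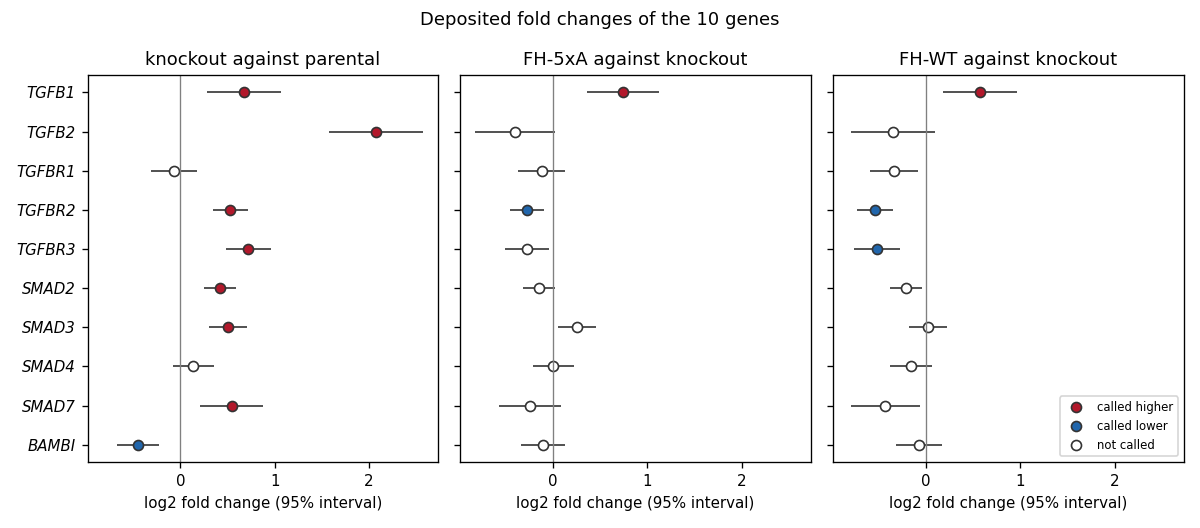
Log2 fold change with its 95% interval (horizontal axis) of the 10 genes in knockout against parental, FH-5xA against knockout and FH-WT against knockout cells; filled points had a false discovery rate under 0.05. In the authors' deposited tables TGFB2 stands farthest right in the knockout panel at 2.08, and TGFBR2 lies right of 0 in knockout cells and left of it in both reconstituted lines.

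The reconstituted lines were then compared with the knockout and with parental cells. In FH-5xA against knockout cells 1 of the 10 members was called higher (TGFB1) and 1 lower (TGFBR2) in the authors' deposited table, beside 5.04% and 6.24% of all genes. In FH-WT against knockout cells 1 was called higher (TGFB1) and 2 lower (TGFBR2 and TGFBR3) in the authors' deposited table, beside 4.21% and 5.85%. The median over the members was -0.13 in FH-5xA against knockout and -0.27 in FH-WT against knockout cells, with 0.01 over all genes in each. By the F distribution no member was called in either comparison, with adjusted p of 0.12 for TGFB1 and 0.18 for TGFBR2 in FH-5xA, and of 0.21 for TGFB1, 0.058 for TGFBR2 and 0.12 for TGFBR3 in FH-WT. Against parental cells 6 members were called higher and 1 lower in FH-5xA (22.9% and 20.9% of all genes), and 4 higher and 2 lower in FH-WT (18.3% and 16.1% of all genes), per the authors' deposited tables. By the F distribution TGFBR2 was lost in FH-5xA (adjusted p = 0.064), and SMAD2 in FH-WT besides TGFBR1 (adjusted p = 0.11). The comparisons share parental or knockout libraries with one another.

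The comparison the study names, FH-5xA with FH-WT, was derived from the tables as the difference of the log2 fold changes against the knockout. None of the 10 members was called, beside 1.98% of 15072 genes called higher and 2.13% called lower (chi-square test, Benjamini-Hochberg adjustment). An unadjusted p under 0.05 by the chi-square test was reached by 3 members, and the share of all genes that reach it is not given here. By the F distribution or with summed squared SEs 0 members were called. The 3 are TGFBR2 at 0.26 ± 0.09 (95% interval 0.08 to 0.44, adjusted p = 0.073), TGFBR3 at 0.24 ± 0.12 (0.00 to 0.47, adjusted p = 0.25) and SMAD3 at 0.23 ± 0.10 (0.03 to 0.42, adjusted p = 0.17).

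The remaining differences of FH-5xA minus FH-WT had intervals that spanned 0. TGFBR1 was at 0.21 ± 0.12 (-0.03 to 0.46), SMAD7 at 0.19 ± 0.19 (-0.18 to 0.56), TGFB1 at 0.16 ± 0.19 (-0.21 to 0.54) and SMAD4 at 0.16 ± 0.11 (-0.05 to 0.37). SMAD2 was at 0.06 ± 0.08 (-0.10 to 0.22), BAMBI at -0.04 ± 0.12 (-0.27 to 0.20) and TGFB2 at -0.05 ± 0.24 (-0.52 to 0.41). Of the 10 members 8 lay above 0, beside 51.6% of all genes, with a median of 0.18 over the members and 0.01 over all genes. The members share the same 6 libraries, and no test was run on this count. A missed threshold does not show that the reconstituted lines express these genes alike.

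**Figure D3:**
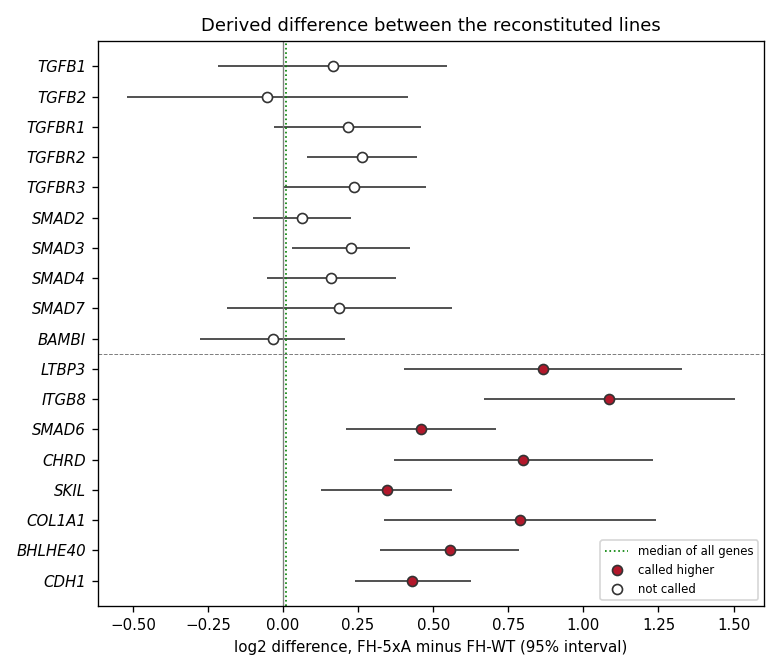
Derived log2 difference of FH-5xA minus FH-WT with its 95% interval (horizontal axis) for the 10 genes (above the dashed line) and the pathway list and marker genes called in that comparison (below it); the dotted line is the median of all genes. None of the 10 genes was called, and ITGB8 stands farthest right at 1.09.

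The wider pathway was read from 5 lists, and LTBP2 and SKIL stand in 2 of them. Genes that TGF-beta is known to induce in many cell types had 18 of 26 members measured, and in knockout against parental cells 14 rose and 1 fell in the authors' deposited table, with a median of 0.48. All genes, beside which each list's counts in this comparison stand, were called higher in 23.2% and lower in 21.2%, with a median of -0.01. TGF-beta signalling itself was not measured in these tables, and its part in the 14 rises was not tested. CDKN1A, which the p53 pathway also induces, rose by 2.04 ± 0.11 (edgeR FDR = 2.1e-72), and BHLHE40, a transcriptional repressor, by 1.72 ± 0.12 (edgeR FDR = 3.7e-44), per the authors' deposited table. TSC22D1, a leucine zipper protein first known as TGF-beta stimulated, rose by 0.68 ± 0.07 in the authors' deposited table (edgeR FDR = 9.4e-20). The member that fell was TAGLN, a smooth muscle actin-binding protein named after its value was seen, at -0.59 in the authors' deposited table. In FH-5xA against knockout cells 1 of the 18 rose and 2 fell, and in FH-WT against knockout cells 0 rose and 4 fell, per the authors' deposited tables. Over all genes 5.04% were called higher and 6.24% lower in FH-5xA against knockout cells, and 4.21% higher and 5.85% lower in FH-WT against knockout cells, so several list counts in these comparisons are near the background. FN1, the matrix protein fibronectin, was lower in FH-5xA by -0.76 ± 0.13 (edgeR FDR = 5.5e-07) and in FH-WT by -0.48 ± 0.13 (edgeR FDR = 0.0066) than in knockout cells, in the authors' deposited tables. COL1A1, a collagen chain, was higher in FH-5xA than in knockout cells by 0.85 ± 0.22 in the authors' deposited table (edgeR FDR = 0.0021).

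SMAD cofactors and regulators had 22 of 24 genes measured, and 12 rose and 0 fell in knockout against parental cells in the authors' deposited table, with a median of 0.32. Among them were SMURF1, a ubiquitin ligase for receptors and SMADs, at 0.76 ± 0.07 (edgeR FDR = 8.8e-23), and PPM1A, a phosphatase of SMAD2 and SMAD3, at 0.56 ± 0.09 (edgeR FDR = 1.2e-09), in the authors' deposited table. The 104 other genes within 5 Mb of SMURF1, on chromosome 7, had a median of 0.44 in the authors' deposited table. The endocytic adaptor DAB2 rose by 0.73 ± 0.11 (edgeR FDR = 2.6e-09) and NEDD4L, a ubiquitin ligase of activated SMADs, by 0.46 ± 0.07 (edgeR FDR = 2e-09), in the authors' deposited table. NEDD4L was lower than in the knockout in FH-5xA, by -0.37 ± 0.07 (edgeR FDR = 1.5e-05), and in FH-WT, by -0.45 ± 0.07 (edgeR FDR = 1.6e-07), in the authors' deposited tables. Over the list 1 rose and 2 fell in FH-5xA against knockout cells, and 0 rose and 2 fell in FH-WT against knockout cells, in the authors' deposited tables, of 22 genes each. These counts lie near the shares over all genes of 5.04% and 6.24% in FH-5xA and 4.21% and 5.85% in FH-WT. The 1 that rose was CREBBP, an acetyltransferase coactivator, at 0.52 ± 0.17 in the authors' deposited table (edgeR FDR = 0.023).

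Latency and activation genes had 11 of 14 measured, of which 4 rose and 1 fell in knockout against parental cells in the authors' deposited table (median 0.17). At an FDR under 0.01, and likewise by the F distribution, 3 of these 5 calls were left. NRP1, a coreceptor that binds latent and active TGF-beta, had fitted levels of 192 CPM in FH-5xA, 221 CPM in FH-WT, 255 CPM in knockout and 5.8 CPM in parental cells. Its rise of 5.46 ± 0.10 in the knockout was the largest of any list gene in the authors' deposited table. ITGB8, the integrin chain that releases latent TGF-beta, had fitted levels of 2.89 CPM in FH-5xA, 1.36 CPM in FH-WT, 4.17 CPM in knockout and 14.7 CPM in parental cells. In the authors' deposited table it fell by 1.81 ± 0.14 in knockout against parental cells (edgeR FDR = 1e-35). The 37 other genes within 5 Mb of it on chromosome 7 had a median of -0.90 in the authors' deposited table. CD109, a TGF-beta coreceptor that inhibits signalling, rose by 0.88 ± 0.09 in the knockout in the authors' deposited table (edgeR FDR = 7.1e-22). Against the knockout 2 rose and 3 fell in FH-5xA, and 0 rose and 4 fell in FH-WT, per the authors' deposited tables. The shares over all genes were 5.04% higher and 6.24% lower in FH-5xA, and 4.21% and 5.85% in FH-WT. The 2 that rose in FH-5xA were the latent TGF-beta binding proteins LTBP3, by 0.82 ± 0.23 (edgeR FDR = 0.0071), and LTBP4, by 0.81 ± 0.21 (edgeR FDR = 0.0033), in the authors' deposited table.

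In the activin and nodal arm, which also signals through SMAD2 and SMAD3, 7 of 15 genes were measured, and 5 rose and 0 fell in knockout against parental cells in the authors' deposited table (median 0.50). The list also holds GDF15, a stress-induced ligand of the superfamily that is neither an activin nor nodal. GDF15 rose by 1.38 ± 0.23 (edgeR FDR = 9.8e-09) and GDF11 by 0.50 ± 0.11 (edgeR FDR = 2.7e-05) in the authors' deposited table. The follistatin-like gene FSTL3 rose by 0.89 ± 0.21 in the authors' deposited table (edgeR FDR = 0.00011). The count is therefore of listed genes and not of signalling through this arm. The receptor ACVR1C had fitted levels of 3.93 CPM in FH-5xA, 3.12 CPM in FH-WT, 6.32 CPM in knockout and 3.59 CPM in parental cells. It rose by 0.82 ± 0.14 in knockout against parental cells (edgeR FDR = 6.4e-08), and lay below the knockout in FH-5xA, by -0.68 ± 0.14 (edgeR FDR = 7.1e-05), and in FH-WT, by -1.02 ± 0.16 (edgeR FDR = 2.1e-08), in the authors' deposited tables. ACVR2B, a type II activin receptor, was at 0.44 ± 0.09 in knockout against parental cells (edgeR FDR = 1.1e-05), -0.35 ± 0.09 in FH-5xA against knockout (edgeR FDR = 0.0033) and -0.45 ± 0.10 in FH-WT against knockout cells (edgeR FDR = 0.00014), in the authors' deposited tables. ACVR2A was not called in knockout against parental cells, at 0.02 (edgeR FDR = 0.89), in the authors' deposited table. It was lower in FH-5xA than in knockout cells, by -0.48 ± 0.11 (edgeR FDR = 0.00035), in the authors' deposited table. Over the arm, 0 rose and 3 fell in FH-5xA against knockout cells and 0 rose and 2 fell in FH-WT against knockout cells, in the authors' deposited tables. Beside them stand shares over all genes of 5.04% higher and 6.24% lower in FH-5xA, and 4.21% and 5.85% in FH-WT. These values share the knockout libraries.

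The BMP arm, which uses SMAD1, SMAD5 and SMAD9, had 15 of 20 genes measured, of which 7 rose and 3 fell in knockout against parental cells in the authors' deposited table (median 0.21). BMP2 rose by 1.72 ± 0.23 (edgeR FDR = 2.4e-12) and its receptor BMPR2 by 1.02 ± 0.09 (edgeR FDR = 6.2e-26) in the authors' deposited table. The fitted level of BMP2 was low, at 2.45 CPM in knockout and 0.745 CPM in parental cells. The 3 that fell were BMP6 at -0.49 ± 0.16 (edgeR FDR = 0.0059), SMAD1 at -0.34 ± 0.09 (edgeR FDR = 0.0011) and BMPR1A at -0.24 ± 0.10 (edgeR FDR = 0.043), in the authors' deposited table. SMAD6, the inhibitory SMAD of this arm, rose by 0.75 ± 0.11 in knockout against parental cells (edgeR FDR = 6.1e-10) and was lower in FH-WT than in knockout cells by -0.61 ± 0.12 (edgeR FDR = 4.7e-05), in the authors' deposited tables. In FH-5xA against knockout cells 0 rose and 1 fell, ID2, a target of BMP signals, at -0.27 ± 0.08 (edgeR FDR = 0.007), in the authors' deposited table. In FH-WT against knockout cells 0 rose and 3 fell in the authors' deposited table. The shares over all genes were 5.04% higher and 6.24% lower in FH-5xA, and 4.21% and 5.85% in FH-WT, each against knockout cells. By the F distribution none of the 5 lists kept a call in FH-5xA against knockout cells, and in FH-WT against knockout cells 2 latency, 1 activin and 1 cofactor call were left.

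**Figure D4:**
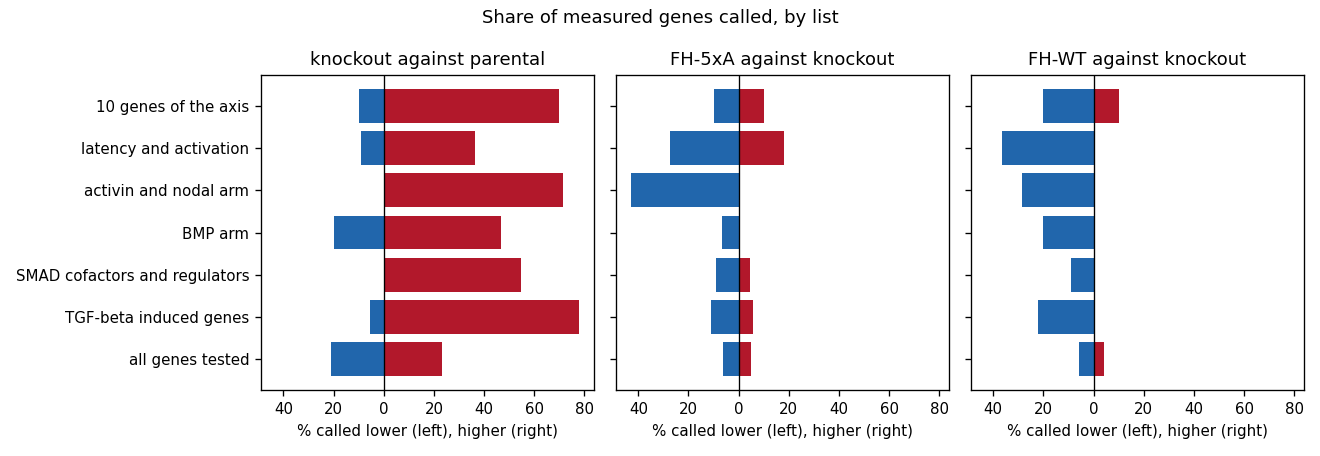
Percent of measured genes called higher (right of 0) and lower (left of 0) on the horizontal axis, for the 10 genes, the 5 pathway lists and all genes tested, in knockout against parental, FH-5xA against knockout and FH-WT against knockout cells. All genes were called higher in 23.2% and lower in 21.2% in the knockout panel, where the 10 genes had 7 higher and 1 lower in the authors' deposited table.

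Of 10 colon epithelium markers 6 were measured, with summed fitted levels of 2170 CPM in FH-5xA, 2020 CPM in FH-WT, 2300 CPM in knockout and 2830 CPM in parental cells. In knockout against parental cells 0 of the 6 rose and 3 fell in the authors' deposited table, beside 23.2% and 21.2% of all genes. Among the 3 were the adhesion protein CDH1 at -0.97 ± 0.08 (edgeR FDR = 1.7e-29) and EPCAM at -0.58 ± 0.07 (edgeR FDR = 1.5e-14), in the authors' deposited table. The third was KRT18 at -0.46 ± 0.08 (edgeR FDR = 1.7e-07), while KRT8 at -0.36 ± 0.16 (edgeR FDR = 0.052), KRT19 at 0.12 and CDX2 at -0.04 were not called in the authors' deposited table. CDH1 had fitted levels of 21.3 CPM in FH-5xA, 15.8 CPM in FH-WT, 25.0 CPM in knockout and 49.1 CPM in parental cells. The part of these values in the values of the 10 genes was not tested. KRT20, VIL1, CDX1 and LGALS4 were not among the genes measured. Of the fibroblast markers 1 of 10 was measured (COL1A1, 4.99 CPM in FH-5xA, 2.89 CPM in FH-WT, 2.76 CPM in knockout and 1.83 CPM in parental cells). Of the endothelium markers 1 of 8 was measured (ESAM, 2.48 to 2.78 CPM over the groups, not called), and of the blood cell markers 0 of 8.

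The microRNA matches were then set beside the fold changes. A match to at least 1 of the 16 seeds was found in every member, and 72 of the 160 pairs of member and microRNA held one (45.0%), beside 18.2% of such pairs over 11745 genes. With an A opposite base 1 of the microRNA, 33 pairs held a match (20.6%), beside 6.16% over all genes. UTR length differs between these sets and was not matched. The median annotated 3′ UTR had 1417 bases, whereas those of the members ran between 538 bases in BAMBI and 32870 bases in SMAD2, whose longest annotated form was used. SMAD2 held 55 matches to 15 of the microRNAs, TGFBR2 held 12 to 10, and BAMBI and TGFB1 each held 2. Which UTR forms HCT116 cells use cannot be read from the tables.

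In knockout against parental cells 7 of all 10 members were called higher in the authors' deposited table, beside which the matches are set here. Matches to miR-19b were present in TGFB2, TGFBR2, TGFBR3, SMAD2, SMAD4 and BAMBI, 6 of the members, beside 16.0% of all 3′ UTRs. In knockout against parental cells the first 4 of these were called higher, SMAD4 was not called and BAMBI was called lower in the authors' deposited table. Matches to miR-21 were present in TGFB2, TGFBR1, TGFBR2, TGFBR3 and SMAD7, beside 10.2% of all 3′ UTRs. TGFBR1 was the only one of these 5 not called higher in that deposited table of the authors. Let-7a matches stood in TGFBR1, TGFBR3 and SMAD2, beside 11.6% of all 3′ UTRs, and miR-17 matches in TGFB1, TGFBR2, SMAD2, SMAD4, SMAD7 and BAMBI, beside 25.9%. Levels of the microRNAs themselves were not analysed here.

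**Figure D5:**
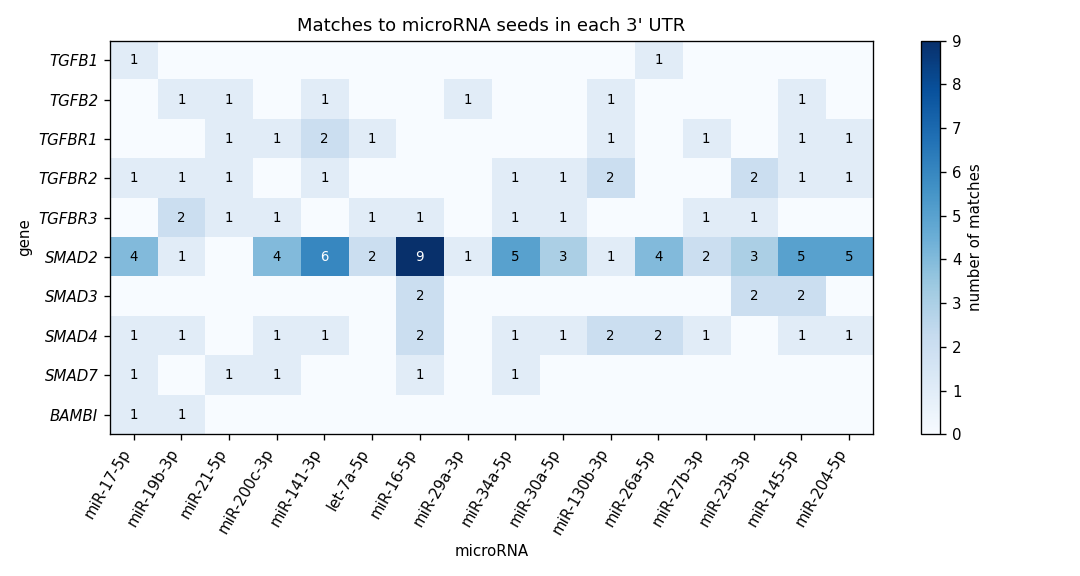
Number of seed matches (colour and digits) in the annotated 3′ UTR of each of the 10 genes (rows) to each of 16 microRNAs (columns); empty cells held no match. SMAD2, with a UTR of 32870 bases, held 55 matches, and BAMBI, with 538 bases, held 2.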

How the data were processed

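RNA-seq of 12 HCT116 libraries (3 per group) was read from the 5 tables of group comparisons that the authors deposited. Per the submitters' processing notes the tools were edgeR 3.8.6, featureCounts 1.4.6, TopHat2 2.0.12 and Cufflinks 2.2.1, on hg38/GRCh38. The sources used here do not state the low-count filter, the normalization or the strand setting.

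Per the file headers, the deposited tables hold a log2 fold change, a mean log2 CPM, a p-value, its false discovery rate and a likelihood ratio score. The deposited p-value equalled the chi-square tail of the score to within 7.36e-15. The SE was the absolute log2 fold change divided by the square root of the score. Fitted group levels combined the mean log2 CPM with the fold changes. The difference of FH-5xA and FH-WT used 1 variance per group solved from the SEs of the 5 tables, a chi-square test and Benjamini-Hochberg adjustment over 15072 genes, and 2 genes gave none. The same derivation predicted 1511 calls for FH-WT against knockout, against 1516 deposited, with 1507 shared. The fold change follows exactly from the other comparisons, so this checked the SE only. Simulated data were used to test the script.

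Symbols matched 14974 of 15074 identifiers, and 15029 were in GENCODE 29. The deposited tests replaced tests on counts, since the tables hold no values per library; depth is therefore unknown. Named were the 10 members in every comparison, up to 4 genes per list and comparison with the smallest p, the 3 nearest profiles of the 2 members that varied most, and AGO2; 1 gene that the rule names is not reported here. The members and lists were chosen with earlier results of these data known. The alternatives were an FDR of 0.01, a minimum of 1 CPM, leaving out chromosome 7, parts of which shifted together in the knockout, centring on the median, an F distribution with 1 and 8 degrees of freedom, and summed squared SEs. The last adds the squared SEs of both reconstituted lines against the knockout. It thus includes the variance of the shared knockout, which cancels in the difference, and overstates the spread. Python 3.11.15, numpy 2.4.6, pandas 2.3.3 and scipy 1.17.1 were used.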

Additional observations from a re-analysis of the deposited data

Results flagged for a closer look

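For 8 genes of the pathway and marker lists the effect of FH-5xA against knockout differed from that of FH-WT against knockout by the chi-square test of the derived difference (FH-5xA minus FH-WT, log2, adjusted over 15072 genes). These were ITGB8 at 1.087 (adjusted p = 0.00021), LTBP3 at 0.865 (adjusted p = 0.014) and SMAD6 at 0.46 (adjusted p = 0.015). CHRD, an extracellular BMP antagonist, was at 0.80 (adjusted p = 0.014) and COL1A1 at 0.788 (adjusted p = 0.024). BHLHE40 was at 0.555 (adjusted p = 0.00077), CDH1 at 0.431 (adjusted p = 0.002) and SKIL, a SMAD corepressor, at 0.345 (adjusted p = 0.043). All 8 were higher in FH-5xA than in FH-WT cells, beside 1.98% of all genes called higher and 2.13% called lower. By list, 2 of 11 latency, 2 of 15 BMP, 1 of 22 cofactor and 3 of 18 induced genes were called. In the activin and nodal arm 0 of 7 were called, and 1 of 6 colon epithelium markers and 1 of 1 fibroblast marker. SKIL and COL1A1 each stand in 2 of these lists. By the F distribution each had an adjusted p of 0.36, and none was called with summed squared SEs.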

How the results depend on the processing

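No paired analysis was possible because the columns carry comparisons and not libraries; for the same reason no library was left out in turn and DESeq2 and the quasi-likelihood test were not run. By the F distribution with 1 and 8 degrees of freedom the members called numbered 0 in FH-5xA (2 as reported) and 0 in FH-WT (3 as reported), each against knockout cells. At an FDR under 0.01, 1 member was called in FH-5xA against knockout. Requiring an A opposite base 1 left 33 of 72 microRNA pairs. In knockout against parental cells 8 members were called under every alternative run, and no direction reversed. Over all genes the F distribution called 92 genes in FH-5xA against knockout (1699 as reported) and 86 genes in FH-WT against knockout (1516). It called 3195 genes in FH-WT against parental cells (5180). An FDR under 0.01 called 895 genes in FH-5xA against knockout, 688 for FH-WT against knockout and 182 for the derived difference (620). The derived difference gave 13 calls with summed squared SEs and 0 by the F distribution.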
